A study of Drosophila montana and Drosophila virilis with 10 samples.

Results

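Gene records that FlyBase, the database of Drosophila genes, opened before the D. virilis genome was annotated carry low identifier numbers. The count files held 213 such records, taken as every identifier of the FBgn form with a number below 0190000, among 15341 FBgn identifiers (1.39%). Their numbers ran from FBgn0005594 to FBgn0086440, and the next identifier in the files was FBgn0197334, so no identifier lay near the limit. These edge records were both scarce, with 1 to 11 reads per library for FBgn0086440 and 0 to 2 for FBgn0197334. The other 15128 identifiers comprised 14270 from FBgn0197334 to FBgn0211799, the block opened for the genome annotation, and 858 from FBgn0256559 upward. The middle one of the older records was FBgn0020453, and 159 of them had a direct numerical neighbour among the rest.

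D. virilis was a subject of comparative genetics long before its genome was read, and genes of that time entered the database from studies of single loci. Such records tend to hold genes that were already known in other flies or that were abundant enough to clone. FlyBase numbers record the order in which entries were made and do not themselves state position or function. The files hold numbers without names, and the table of gene names used here, which covers a D. montana assembly, held 0 of the 213. No gene name, role, length or sequence is therefore given, and the whole-fly origin was not checked against marker genes.

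Messenger RNA came from pools of whole flies of 2 species after cold acclimation, a spell at low temperature that raises cold tolerance in insects, or at ambient temperature. D. montana (strain 175OJ8, Oulanka, Finland; 10 flies per pool) had 3 control pools with stated ages of 21 to 23 days and 3 acclimated pools of 24 to 26 days. D. virilis (strain TOY3F9, Toyama, Japan; 20 flies per pool) had 2 control pools of 27 to 28 days and 2 acclimated pools of 29 to 30 days. These ages increase in steps of 1 day over all 10 libraries in turn, so they may not be the flies' real ages. Acclimation and stated age cannot be told apart within either species, temperatures and sex are not given in the labels, and 1 strain stands for each species. A D. montana library held 1518027 to 2235850 gene reads, and one of D. virilis 650517 to 1316804. Reads placed more than once, which are not in the gene counts, made up 18.4% to 23.8% of the D. montana reads, while for D. virilis the figure was 75.6% to 83.4%. In bulk libraries of whole flies, fewer cells of a type and less RNA per cell cannot be told apart.

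The older records held more reads than the other identifiers by most measures. In D. montana 208 of 213 (97.7%) had at least 1 read, against 98.3% of the genome block and 52.2% of the identifiers numbered above it. At least 10 reads in every library were found for 152 (71.4%), against 56.7% of the block. In D. virilis 200 (93.9%) had a read, against 87.9% of the block and 34.7% of the higher numbers, and 117 (54.9%) had at least 10 in every library, against 43.3% of the block. The median level of an older record was 38.0 CPM (reads per 1000000 gene reads, scaled within the species) in D. montana, against 14.8 CPM for the genome block. In D. virilis the medians were 27.3 and 11.3 CPM. These levels are reads per identifier and are not divided by gene length, so they do not rank transcript abundance. By the same measure 48 of the 213 (22.5%) stood among the highest 10% of all identifiers in D. montana and 47 (22.1%) in D. virilis.

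Some old records had no counted reads. No read fell on 5 of the 213 in any of the 10 libraries, so the highest level compatible with the depth was 1.34 to 1.93 CPM where the library was D. montana and 2.35 to 4.31 CPM where it was D. virilis (3 reads per library, counting error only). This limit leaves out reads placed more than once, so a gene with near-identical copies could lie above it, which was not tested. All 5 belonged to the series from FBgn0068555 to FBgn0068561, whose sixth record in the files had 2 reads in all. The next lower record, FBgn0068554, had 199 to 536 reads per D. montana library. A further 8 records had reads in D. montana and 0 in D. virilis, none of them with more than 37 reads over the 6 D. montana libraries.

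A few records held most of the reads. FBgn0016474 had 13089 CPM, 14810 CPM and 18565 CPM in the D. montana controls and 22979 CPM, 17305 CPM and 13466 CPM in the acclimated pools. The groups overlapped, and its mean of 16702 ± 3751 CPM (SD, n = 6) was the highest of all identifiers in that species. In D. virilis it had 9700 and 13390 CPM in controls and 9688 and 9443 CPM after acclimation, and it was the third highest. It did not pass the test for acclimation in either species (log2 fold changes of 0.21 with SE 0.28 and −0.27 with SE 0.16, edgeR adjusted p = 0.79 and 0.51). The 5 highest records, which also included FBgn0013086, FBgn0085982, FBgn0064312 and FBgn0020676 in D. montana, took 50.2% of the reads on older records there. In D. virilis FBgn0016474, FBgn0085982, FBgn0016459, FBgn0013086 and FBgn0061220 took 50.2%. Of the 10 highest records in each species, 8 were the same.

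Together the 213 records took 5.59%, 5.75% and 6.32% of the gene reads in the D. montana controls and 6.72%, 5.94% and 5.61% in the acclimated pools. The groups overlapped, and the means of 5.88% ± 0.38 and 6.09% ± 0.57 (SD, n = 3 each) differed by 0.21 percentage points (two-sided p = 0.60 by exact permutation, where 0.10 is the lowest this design can give). In D. virilis the shares were 5.62% and 5.63% in the controls and 6.41% and 6.59% after acclimation. Both acclimated libraries were higher, by 0.88 percentage points on average, where 2 libraries per group cannot give an exact permutation p below 0.333. FBgn0085982 (0.35 points) and FBgn0016459 (0.33 points) added most to that difference, while 119 of the 213 records had a lower share after acclimation and 81 a higher one. The share of reads placed more than once was also higher in both acclimated D. virilis libraries, 82.7% and 83.4% against 75.6% and 77.6%, and its part in the result was not tested. In D. montana that share was 18.9%, 19.1% and 19.0% in the controls and 23.8%, 18.4% and 22.4% in the acclimated pools. Over all libraries the species means were 5.99% ± 0.45 (SD, n = 6) in D. montana and 6.06% ± 0.51 (SD, n = 4) in D. virilis (two-sided p = 0.84 by exact permutation, where 0.0048 is the lowest that can be reached).

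**Figure D1:**
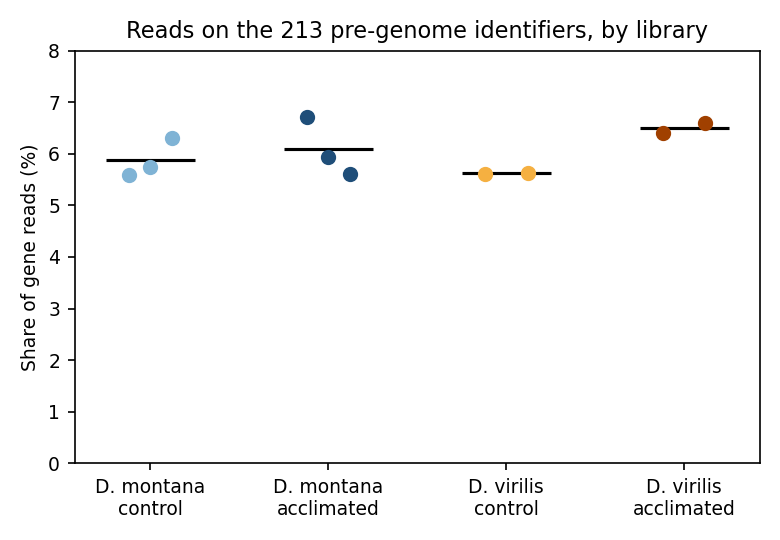
Share of gene reads on the 213 older records (vertical axis, percent) in each library (points) with the group mean (line). The D. montana groups overlap, while both acclimated D. virilis libraries, at 6.41% and 6.59%, lie above both controls, at 5.62% and 5.63%.

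Response to acclimation was tested for each gene by the quasi-likelihood F-test of edgeR. P-values were adjusted by Benjamini and Hochberg's method over all genes of the species, with a threshold of 0.05. In D. montana 167 of the 213 older records passed the expression filter, and 9 of these changed, 8 upward and 1 downward. That is 5.39% of the older records tested, against 1.67% of all 9315 identifiers tested (1.16% higher, 0.515% lower). The older records tested were richer in well-covered genes: 78 of them lay among the 3105 tested identifiers with the most reads, where 6 older records (7.69%) and 2.45% of all identifiers were called. Among the middle 3105 it was 3 of 47 (6.38%) against 1.77%, and among the lowest 3105 it was 0 of 42 against 0.805%. The median log2 fold change was −0.02 for the 167 and −0.01 for all identifiers. Unadjusted p-values under 0.05 were found for 33 (19.8%), against 13.4% of all identifiers, and groups did not overlap for 47 (28.1%), against 18.6%.

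The count rested on single pools. Without D. montana control 2, 2 older records passed (1.18% of 170, against 0.75% of all identifiers), and without acclimated 2 it was 5 (2.92%, against 1.06%). The other fits that left out a pool gave 8 to 12 (4.73% to 7.14%, against 1.16% to 2.99%). FBgn0013068 and FBgn0062716 passed in every alternative that was run. The rule for reported genes, meant for identifiers without names, chose FBgn0016404, FBgn0067463 and FBgn0013068 here, and the other 6 are included because they complete the called records.

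The largest increase was that of FBgn0016404, with 55.8 CPM, 70.2 CPM and 111 CPM in the D. montana controls and 133 CPM, 322 CPM and 196 CPM after acclimation. The groups did not overlap, and the record rose by 1.45 on the log2 scale (SE 0.29, edgeR adjusted p = 0.016). Without control 2 or acclimated 2 the adjusted p was 0.101 and 0.051, and it was 0.069 with DESeq2's Wald test. Its numerical neighbours did not move as a block. FBgn0016402 had 150 CPM, 191 CPM and 167 CPM in controls and 209 CPM, 364 CPM and 404 CPM in acclimated pools, which also did not overlap (log2 fold change 0.95, SE 0.21, edgeR adjusted p = 0.031). It missed the threshold in 5 of 14 alternatives (adjusted p up to 0.128). FBgn0016401 and FBgn0016403, the other records of that series, had log2 fold changes of −0.08 (SE 0.23, adjusted p = 0.92) and 0.01 (SE 0.21, adjusted p = 0.99).

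FBgn0067463 had 49.7 CPM, 37.4 CPM and 64.0 CPM in the D. montana controls and 93.5 CPM, 156 CPM and 113 CPM after acclimation. All acclimated pools were above all controls (log2 fold change 1.25, SE 0.21, edgeR adjusted p = 0.0069). FBgn0062716 had 17.9 CPM, 26.4 CPM and 23.8 CPM in controls and 50.3 CPM, 56.5 CPM and 48.3 CPM in acclimated pools, a 2.28-fold rise with little spread inside the groups (edgeR adjusted p = 0.0067). FBgn0013135 rose 2.19-fold, from 33.0 ± 4.3 to 72.2 ± 19.6 CPM (SD, n = 3 each, edgeR adjusted p = 0.012), its lowest acclimated pool being at 52.6 CPM and its highest control at 37.0 CPM. The remaining 3 rose 1.90-fold to 1.97-fold, and the groups did not overlap for any of them. FBgn0013115 went from 33.3 ± 6.5 to 65.8 ± 4.1 CPM (edgeR adjusted p = 0.012). FBgn0013088 went from 146 ± 23 to 282 ± 27 CPM (adjusted p = 0.0055). FBgn0068554, the numerical neighbour of the records without reads, went from 126 ± 7.4 to 240 ± 57 CPM (adjusted p = 0.012). Without control 2 the records of this group other than FBgn0062716 had adjusted p-values of 0.053 to 0.070. Without acclimated 2 those of FBgn0013135 and FBgn0068554 were 0.058 and 0.062.

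The 1 older record that fell was FBgn0013068. It had 1925 CPM, 2080 CPM and 2482 CPM in the D. montana controls and 927 CPM, 340 CPM and 692 CPM after acclimation. Every acclimated pool lay far below every control, and the record fell by 1.73 on the log2 scale (SE 0.28, edgeR adjusted p = 0.0055).

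**Figure D2:**
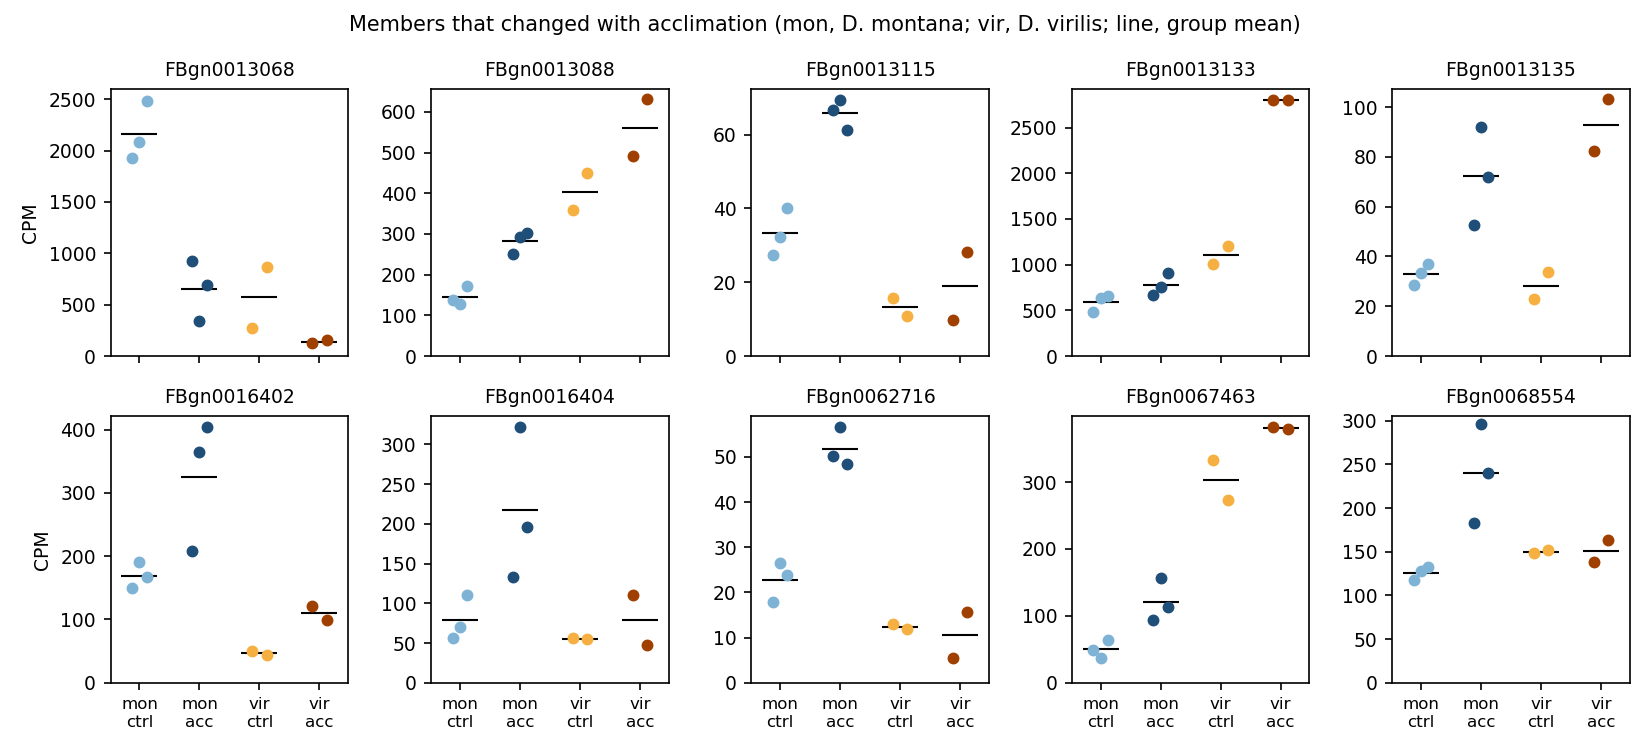
Levels (CPM, scaled within each species) of the 10 older records called in D. montana or D. virilis, by group (mon, D. montana; vir, D. virilis; ctrl, control; acc, acclimated), with a point per library and a line at the group mean. In D. montana the acclimated points do not overlap the controls in any of the 10 panels, but for FBgn0013133, called in D. virilis alone, they nearly meet, at 655 CPM and 662 CPM.

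In D. virilis 129 of the 213 older records passed the filter and 1 changed, FBgn0013133. That is 0.775%, against 0.312% of all 7692 identifiers tested. FBgn0013133 had 1012 and 1201 CPM in the controls and 2805 and 2801 CPM after acclimation, so that the acclimated libraries were nearly equal and far above the controls. The difference on the log2 scale was 1.34 (SE 0.17, edgeR adjusted p = 0.023). Leaving out control 1 or control 2, which leaves a lone control assumed to vary like the other group, gave adjusted p-values of 0.053 and 0.055. In D. montana the same record had 480 CPM, 630 CPM and 655 CPM in controls and 662 CPM, 751 CPM and 909 CPM in acclimated pools, which did not overlap but did not pass (log2 fold change 0.40, SE 0.18, adjusted p = 0.36).

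Unadjusted p-values under 0.05 were found for 26 of the 129 (20.2%), against 12.8% of all D. virilis identifiers. Of these, 19 were higher (14.7%, against 7.18%) and 7 lower (5.43%, against 5.64%). FBgn0085982 had 7001 and 6438 CPM in controls and 12181 and 9848 CPM after acclimation, with no overlap (log2 fold change 0.71, SE 0.14, edgeR adjusted p = 0.081). FBgn0016459 had 2660 and 2158 CPM in controls and 3801 and 8227 CPM after acclimation, both above the controls and more than 2-fold apart (log2 fold change 1.32, SE 0.31, adjusted p = 0.12). DESeq2's Wald test called both of these with FBgn0013133, 3 in all (2.33%, against 1.21%), while limma-voom called FBgn0085982 and FBgn0013133 (1.55%, against 0.676%). The D. virilis count was 0 without control 2, 3 (2.21%) without acclimated 1 and 6 (4.44%) without acclimated 2, where 0.049%, 1.17% and 2.63% of all identifiers tested passed. It was 9 (4.97%, against 1.43%) with a minimum of 1 CPM in place of the filter and 14 (7%, against 3.05%) with none. Without control 1 the record called was FBgn0013068 and not FBgn0013133.

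Both species could be compared for 128 older records, of which 75 (58.6%) had a log2 fold change of the same sign, against 59.4% of all 7443 identifiers tested in both. All 9 records called in D. montana were tested in D. virilis, and 8 had the same sign there, where 85% of all identifiers called in D. montana had it. For 3 of the 9 (33.3%) the D. virilis difference had an unadjusted p under 0.05, against 43.6% of all 140 identifiers called in D. montana and tested in both. FBgn0013135 had 23.0 and 33.6 CPM in the D. virilis controls and 82.3 and 103 CPM after acclimation, a difference of 1.70 on the log2 scale (SE 0.32, edgeR adjusted p = 0.075). FBgn0016402 had 50.3 and 43.4 CPM against 122 and 99.3 CPM, also without overlap (log2 fold change 1.24, SE 0.27, adjusted p = 0.094). FBgn0013068 had 269 and 872 CPM in controls and 122 and 158 CPM after acclimation, both acclimated libraries lying below both controls although the controls differed from each other more than 3-fold (log2 fold change −2.03, SE 0.46, adjusted p = 0.11).

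The other called records gave smaller differences in D. virilis, none of which passed. FBgn0068554 was level there, with 148 and 152 CPM in controls and 138 and 163 CPM after acclimation (log2 fold change 0.01, SE 0.21, edgeR adjusted p = 0.99). FBgn0062716, with 5 to 20 reads per D. virilis library, had a value of −0.18 on that scale (SE 0.69, adjusted p = 0.94). The remaining 4 had values between 0.33 and 0.56, with SEs of 0.20 to 0.65. Acclimated and control libraries did not overlap in either species for 9 older records that were higher in both (7.03%, against 3.71% of all identifiers) and for 7 that were lower in both (5.47%, against 3.37%). For 4 records (3.12%, against 2.16%) the groups did not overlap and the directions were opposite.

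**Figure D3:**
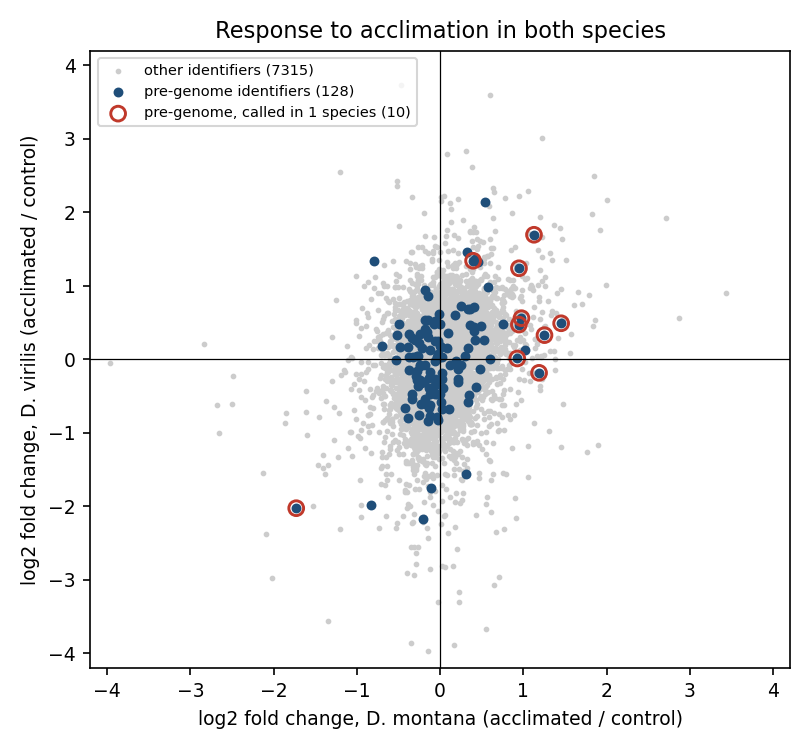
Log2 fold change with acclimation in D. montana (horizontal) and D. virilis (vertical) for the 128 older records (blue) and the other identifiers (grey) tested in both species, with the 10 called older records ringed. The rings lie to the right of 0 apart from FBgn0013068 at the lower left, and 6 other identifiers lie outside the axes.

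Whether the 2 species responded differently was tested as an interaction in a fit of all 10 libraries, and 0 of 174 older records passed, against 0.224% of all 9811 identifiers. Unadjusted p-values under 0.05 were found for 26 of the 174 (14.9%, against 11.4%), DESeq2's Wald test called 1 (0.575%, against 0.601%) and limma-voom 0. The smallest p-value belonged to FBgn0013101. It had 13.4 CPM, 15.5 CPM and 20.6 CPM in the D. montana controls and 7.60 CPM, 14.6 CPM and 6.71 CPM in the acclimated pools, which overlapped. In D. virilis it had 30.2 and 39.0 CPM in controls and 82.3 and 94.6 CPM after acclimation, which did not. Its log2 fold change in D. montana minus that in D. virilis was −2.18 (SE 0.46, edgeR adjusted p = 0.075). It passed in 6 of 18 alternatives, with adjusted p-values from 0.010 to 0.19 over all of them. In the other direction the smallest p-value was that of FBgn0041649. This record was level in D. montana, at 36.6 ± 8.1 and 34.1 ± 3.4 CPM (SD, n = 3 each), and had 57.5 and 56.4 CPM against 15.4 and 18.0 CPM in D. virilis (difference 1.60, SE 0.39, edgeR adjusted p = 0.12).

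Levels in the 2 species were set side by side in the same fit, with the groups weighted equally. Species cannot be told apart here from strain, pool size, stated age, instrument or how well the reads of each species matched the annotation. Reads that fell on no annotated gene numbered 3235180 to 5173737 per D. montana library, beside 1518027 to 2235850 gene reads. For D. virilis they numbered 1014831 to 1503641, beside 650517 to 1316804, and their part in the levels was not tested. Of 174 older records 132 differed (75.9%, against 66.3% of all identifiers), 80 of them higher in D. montana (46.0%, against 34.1%) and 52 higher in D. virilis (29.9%, against 32.1%). The median log2 ratio of D. montana to D. virilis was 0.37 for the older records and 0.03 for all identifiers. The joint filter kept records well covered in either species. With each species fitted alone, 39 older records passed the filter in D. montana only, 1 in D. virilis only and 128 in both. A record let in by 1 species tends to be high there, and the part of this in the shift was not tested. A scaling by library totals alone moved the median of all identifiers to 0.29 and the split of the older records to 90 and 43. Under that scaling 4080 of the 6387 identifiers called were higher in D. montana, against 3347 of 6501. Among 128 older records tested in both species, the levels correlated across records with a Spearman rho of 0.746, and among the others with 0.687, which describes records that share libraries and are not replicates.

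The ratios of some records were extreme, and the records given here were picked by those ratios. FBgn0014837, FBgn0020674 and FBgn0013102 entered the joint fit through the species in which they are high. P-values beside these ratios describe the fit and are no independent test. FBgn0014837 had 1 to 7 reads in each D. montana library and 180 to 256 in each D. virilis library. Its level was 4.51 CPM at most in D. montana and 181 CPM at least in D. virilis, a ratio of 92.1 over the summed reads (95% counting interval 63.3 to 139). The joint fit gave a log2 ratio of −6.81 (SE 0.22, edgeR adjusted p = 6.8e-13). FBgn0022839 had 12.2 to 43.0 CPM in D. montana and 420 to 538 CPM in D. virilis, with a log2 ratio of −4.37 (SE 0.17, adjusted p = 4.7e-12). Neither record overlapped between the species.

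In the other direction FBgn0020674 had 81.0 to 158 CPM in D. montana, while the D. virilis libraries held 0, 2, 8 and 0 reads. Its log2 ratio was 5.55 (SE 0.46, edgeR adjusted p = 2.5e-08). Its size depended on the libraries used, at 7.64 without D. virilis control 2, 8.45 without acclimated 1 and 4.98 without acclimated 2. FBgn0013102 had 119 reads over the D. montana libraries, 3.86 to 15.9 CPM, and 1 read in all of D. virilis, a ratio of 41.3 with a counting interval of 7.27 to 1650. That interval is wide because it rests on that 1 read. Of all 213 records, 77 were higher in every D. montana library than in any D. virilis library (36.2%, against 25.2% of all identifiers counted) and 29 were lower (13.6%, against 10%). These levels, like the ratios over summed reads, were scaled within each species and not between them, and no filter was applied to these counts. In the joint fit, scaled over both species, 34.1% of all identifiers were called higher in D. montana and 32.1% lower. The part of scaling and depth in this was not tested.

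**Figure D4:**
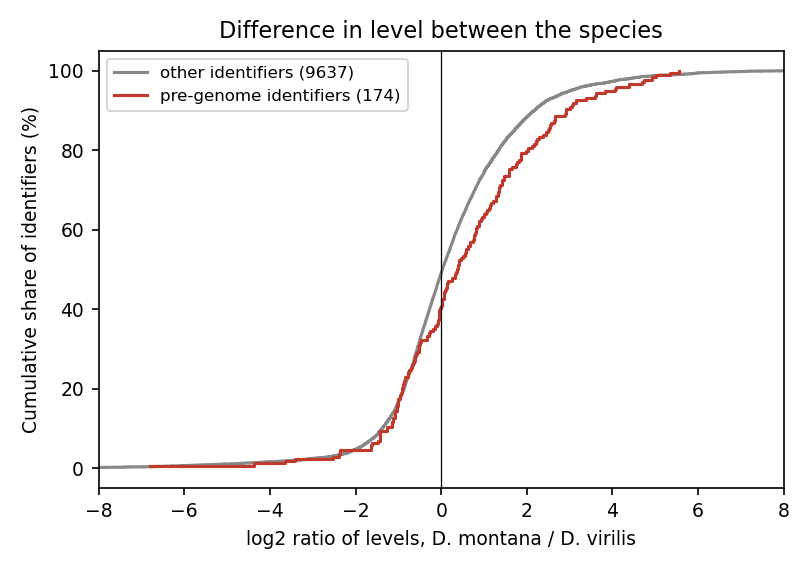
Cumulative share of identifiers (vertical, percent) by the log2 ratio of levels, D. montana to D. virilis (horizontal), for the 174 older records in the joint fit (red) and the other identifiers (grey). The red curve lies to the right of the grey one above 0, with medians of 0.37 and 0.03. The 174 include records that passed the expression filter in 1 species only.

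Spread between replicate pools was close to that of other genes, the median biological coefficient of variation being 14.8% for the older records and 14.5% for all identifiers in D. montana, and 22.1% and 23.5% in D. virilis. The consecutively numbered FBgn0013068 to FBgn0013072 were an exception in D. montana, where 3 of them (FBgn0013069, FBgn0013070 and FBgn0013071) were among the 5 most variable of the older records tested there. This series and the records of the next paragraph were chosen after their values had been seen. FBgn0013070 had 653 CPM, 550 CPM and 752 CPM in the D. montana controls and 1266 CPM, 307 CPM and 304 CPM in the acclimated pools. Acclimated pool 1 stood above all controls and the other acclimated pools below them, and no change was called (log2 fold change −0.06, SE 0.40, edgeR adjusted p = 0.97). FBgn0013071 had the same order of pools, with 928 CPM, 803 CPM and 1239 CPM against 1516 CPM, 606 CPM and 509 CPM. FBgn0013069 had 453 CPM, 300 CPM and 512 CPM against 955 CPM, 376 CPM and 274 CPM, and FBgn0013072 ranged from 602 to 1516 CPM with overlapping groups. Only FBgn0013068, described above, separated the groups among these 5 in D. montana. Together they took 0.467% to 0.574% of gene reads in the D. montana controls and 0.580%, 0.302% and 0.238% in the acclimated pools. In D. virilis their share was 0.0955% and 0.206% in the controls and 0.0517% and 0.111% after acclimation.

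A few older records had reads in 1 D. montana pool and almost none elsewhere in that species. FBgn0017817 had 125 reads in acclimated 2 and 0 to 2 in each of the other D. montana libraries. FBgn0017816 had 34 reads there and 0 to 3 elsewhere, and FBgn0015675 had 14 there and 0 elsewhere. All 3 stood apart in the same pool, and FBgn0017815, of the same series, had 5 reads there and 1 in all other D. montana libraries. At least 10 reads in acclimated 2 with at most 3 in every other D. montana library was a pattern of 3 of the 213 older records (1.41%) and of 9 of all 15342 identifiers counted (0.0587%). For the other 5 pools, taken one at a time, it held for 0 older records and for 0 to 3 identifiers each (0.0521% for all 5 together). In D. virilis FBgn0015675 had 7 and 10 reads in control 1 and acclimated 2 and 1 in each of the others. None of these records passed the filter in D. montana. Without acclimated 2, 5 older records passed the test for acclimation (2.92%, against 1.06% of all identifiers). Without control 2 it was 2 (1.18%, against 0.75%). Any part of the pattern in these counts was not tested.

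**Figure D5:**
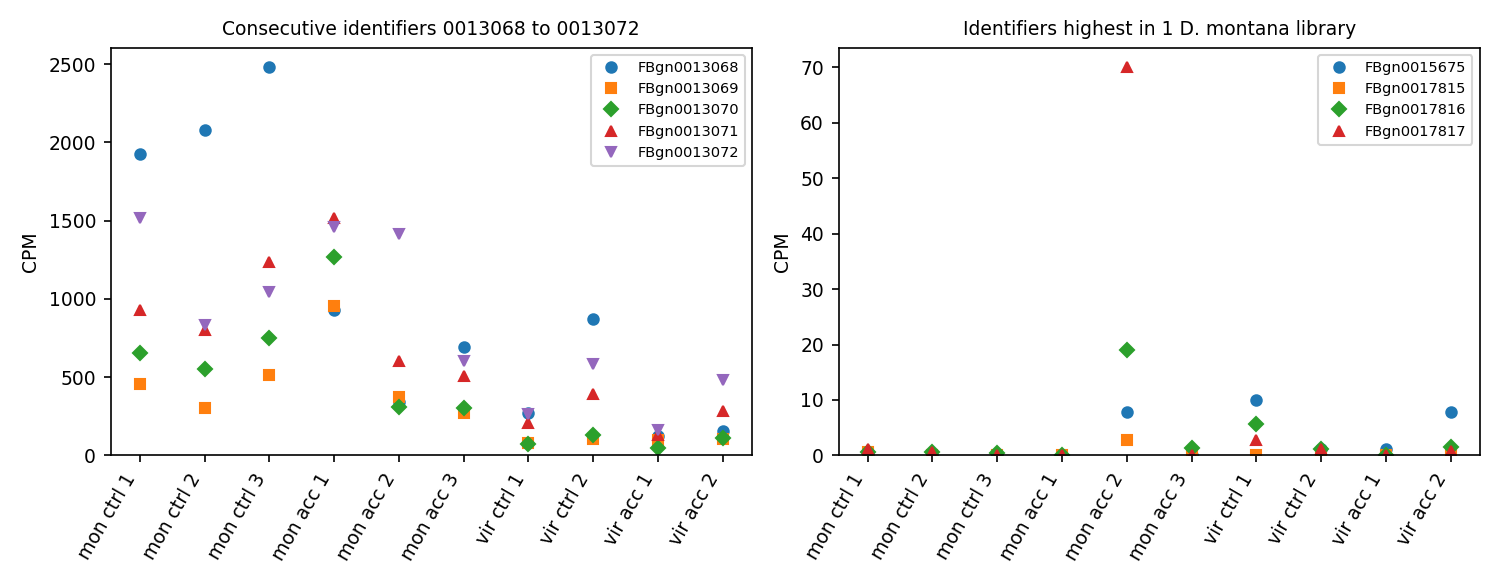
Levels (CPM, scaled within each species) in each library for the consecutively numbered FBgn0013068 to FBgn0013072 (left) and for FBgn0015675 and FBgn0017815 to FBgn0017817 (right), with a marker shape per record. At the left FBgn0013068 is lower in all acclimated D. montana pools while FBgn0013070 is at 1266 CPM in acclimated 1 and near 300 CPM in the others. At the right acclimated 2 stands apart, with 125 reads of FBgn0017817.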

How the data were processed

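Whole-fly RNA was extracted with Tri Reagent and RNeasy columns with DNase treatment and sequenced on SOLiD instruments, per the labels' protocols and series text. The authors deposited raw read counts for each identifier, and the submitters' processing notes name HTSeq. No aligner, genome build, annotation or strand setting is given in the sources used here, so overlapping or near-identical genes could lose or share reads. Counts were tested as deposited with edgeR 4.0.16 (quasi-likelihood F-test, TMM scaling, default filter by group with minimum count 10 and total 15, limma 3.58.1, R 4.3.3) and Benjamini-Hochberg adjustment over all genes of a fit. Each species was fitted alone. The interaction and the species contrast used all 10 libraries with a mean per group. The 5 counter lines of each file that name no gene were left out. Standard errors are the unshrunken log2 fold change over the square root of F.

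Members and tests were chosen with earlier results of these data known. The labels do not say whether the pools were raised apart, and the p-values may therefore reflect technical spread alone. The reporting rule took at most 2 rising and 2 falling records per contrast, the 5 highest per species, the extreme species ratios and, without a call, the smallest p-value in each direction. No gene list could be matched to identifiers, and none was tested. Alternatives were DESeq2 1.42.0, limma-voom, other scalings and filters, a replicate block and leaving out each library. Replicate numbers showed no sign of pairing the D. montana pools. There the deviations from group means correlated at −0.233 to −0.118 for same-numbered libraries and at −0.024 to 0.141 for the others. Such deviations sum to 0 in a group, so the values are not independent. In D. virilis the values, −0.0446 and 0.0446, are forced to mirror each other by 2 libraries per group and cannot decide it.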

Additional observations from a re-analysis of the deposited data

Results flagged for a closer look

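For 4 older records all acclimated libraries lay on one side of the controls in D. montana and on the opposite side in D. virilis (3.12% of the 128 tested in both, against 2.16% of all identifiers). They were chosen after their values had been seen, and for none did the difference itself pass edgeR's interaction test. FBgn0013112 had 602 to 777 CPM in the D. montana controls and 483 to 518 CPM after acclimation, against 865 and 941 CPM and then 1040 and 996 CPM in D. virilis (difference in log2 fold change −0.70, edgeR adjusted p = 0.29). FBgn0067466 had 30.7 to 35.4 CPM and 21.6 to 25.8 CPM in D. montana, and 57.5 and 49.9 CPM and then 76.8 and 72.7 CPM in D. virilis (difference −1.02, adjusted p = 0.22). FBgn0013917 and FBgn0013918 had differences of −0.61 (adjusted p = 0.39) and −0.76 (adjusted p = 0.27). All 4 were lower after acclimation in D. montana and higher in D. virilis.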

How the results depend on the processing

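Called older records numbered 8 to 11 in D. montana (all identifiers 1.54% to 2.29%) and 129 to 135 between species (63.4% to 66.3%) under other scalings, tools and the block, 12 (1.69%) and 142 (49.8%) with no filter. Without single libraries they were 2 to 12 in D. montana, 0 to 6 in D. virilis, 0 to 2 in the interaction and 126 to 133 between species. Without single D. montana libraries, 0.75% to 2.99% of all identifiers passed in D. montana. The interaction then gave 0 to 1 older records (all identifiers 0.145% to 0.248%), and the species contrast 126 to 132 (62.9% to 64.9%). The interaction count of 2 came without D. virilis acclimated 2, where a larger share of all identifiers passed than of older records. Fits without a D. virilis library leave 1 library in a group. In D. virilis the count of 1 became 14 with no filter (all identifiers 3.05%), 9 with a minimum of 1 CPM (1.43%), 3 with DESeq2 (1.21%) and 2 with limma-voom (0.676%). The replicate block, whose numbers showed no sign of pairing the D. montana pools, gave 2 in D. virilis (all identifiers 0.546%) and 10 in D. montana (1.66%). It gave 0 in the interaction (0.173%) and 129 between species (64%). The interaction count of 0 became 1 with no filter (0.481%, against 0.543% of all identifiers). It was also 1 with a minimum of 1 CPM (0.49%, against 0.364%) and with DESeq2 (0.575%, against 0.601%). The lower limit tried for the identifier number left the same 213 records. Library totals without scaling moved the median log2 value of all identifiers to −0.126 in D. virilis, 0.147 in the interaction and 0.294 between species.

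The D. montana share minus that of D. virilis changed sign with the libraries used: it was −0.66 points without FBgn0016474, the highest record in both species and higher in D. montana, and −0.22 to 0.10 points without single libraries, turning positive without D. montana control 1 (0.0056) or acclimated 3 (0.0010) and without D. virilis acclimated 1 (0.043) or 2 (0.10). The D. montana share difference was −0.11 to 0.45 points, negative without acclimated 1. Detection fell to 90.1% (D. montana) and 72.3% (D. virilis) with 1 read in every library, 93.9% and 82.6% at 1 CPM, and 71.4% and 54.9% at 10 reads in every library.

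Some values that were not called changed sign in an alternative, and some listed beside them kept their sign. FBgn0041649 in D. montana became 0.089 without control 1. In D. virilis FBgn0068554, at 0.01 in the main fit, became −0.11 without scaling, −0.015 without control 1 and −0.11 without acclimated 2. It kept its sign, at 0.13, without acclimated 1. Without acclimated 1 and 2 in turn FBgn0016404 (0.49 in the main fit) became −0.21 and 0.99. FBgn0062716 (−0.18 in the main fit) became 0.34 and −1.15, and FBgn0013115 (0.56) became 1.10 and −0.41. The interaction of FBgn0013068 changed sign to −0.081 with limma-voom and −0.049 with the replicate block. It was −0.069 without D. montana acclimated 1 and −0.88 without D. virilis control 2, and kept its sign, at 0.87, without D. virilis control 1. That of FBgn0013115 changed sign to −0.24 without D. virilis acclimated 1 and kept it, at 1.35, without acclimated 2. The cause was not tested. D. virilis libraries held fewer gene reads, and 129 of 213 records passed the filter there against 167. The part of depth in this was not tested.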
